A study of Homo sapiens with 4 samples.

Results

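PTPRN2, DLGAP2, RANBP2, AHRR and CUX1 are 5 protein-coding genes that hold many γH2AX peaks listed in lipid overload and not in mock treatment, inside the gene's annotated interval and away from its ends. They were chosen from a ranking of 19821 protein-coding genes by the number of lipid-overload peaks that overlap no mock peak and lie more than 1 kb inside both gene ends, so those numbers are given as a description and support nothing. At least 15 such peaks were counted in 7 of the 19821 genes (0.0353%), among them all 5 described here, with 30 in PTPRN2, 28 in RANBP2, 17 in DLGAP2 and 15 each in AHRR and CUX1. The RANBP2 interval overlaps 6 other coding genes, and 19 of its 28 peaks have their summit in one of those, so the number describes the interval. CAMTA1 also reached 15 and is not among the 5, another gene with 27 is not reported here, and CDH4, PLEKHG4B, SHANK2 and SNX29 stood just below with 14 each. At least 1 such peak was listed for 26.8% of the coding genes.

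γH2AX was mapped by CUT&Tag in HepG2, an established human liver cancer cell line, after lipid overload or mock treatment. CUT&Tag guides a transposase to an antibody on chromatin, so that the DNA beside the antibody is cut, tagged and sequenced. The series holds 4 samples in 4 groups of 1: lipid overload with the γH2AX antibody, lipid overload with control IgG, mock treatment with the γH2AX antibody and mock treatment with control IgG, each from 100000 cells and 14 cycles of PCR. The peak lists of both γH2AX libraries were used. Samples with control IgG were not analysed here.

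γH2AX is the histone variant H2AX phosphorylated on a serine of its tail, a mark that kinases of the damage response place around DNA double-strand breaks and that can spread over long stretches of chromatin beside a break. PTPRN2 encodes a phosphatase-like membrane protein of the secretory granules of neuroendocrine cells, and DLGAP2 a scaffold protein of the postsynaptic density, so both are known chiefly from nerve and endocrine tissue rather than from liver. RANBP2 encodes a large protein of the cytoplasmic filaments of the nuclear pore that binds the GTPase Ran and promotes SUMO conjugation, AHRR the repressor of the aryl hydrocarbon receptor, and CUX1 a homeodomain transcription factor.

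A peak below belongs to a gene when its summit lies between the gene's RefSeq start and end (build hg38, GRCh38.p14), its position is the distance of the summit from the lower-coordinate end of the gene, and its height is the number of DNA fragments over the summit, recovered from the authors' fold and p values. A lipid-overload peak is called shared when it overlaps a mock peak by at least 1 bp. The lipid-overload list held 27296 peaks with a median of 9 fragments (quartiles 6 and 13), and the mock list 8542 with a median of 5 (quartiles 4 and 8). No lipid-overload peak stood on fewer than 4 fragments and no mock peak on fewer than 3. Per base, the background level of the lipid-overload library was 2.62 times that of the mock library, called the depth ratio below. With 1 library per condition no difference has a replicate check, and every interval given is a 95% interval. It covers the error of counting fragments or peaks alone. Copies made by PCR are no separate molecules, and an interval is too narrow if they remain among the fragments. Whether they were removed is not given in the sources used here. More cells with the mark and more mark per cell cannot be told apart in these libraries.

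Of the 129 lipid-overload peaks in the 5 genes, 4 (3.10%) reached a RefSeq promoter window, the 250 bases before and 50 bases after an annotated gene start, compared with 22.4% of the whole lipid-overload list. Of the 33 mock peaks, 2 (6.06%) did, compared with 19.8% of the whole mock list. The genes were chosen for lipid-overload peaks away from gene ends, which favours a low share, so nothing is read from these shares. RefSeq promoter windows of GRCh38.p14 were found for 3 of the 5 genes, RANBP2, AHRR and CUX1, and both AHRR windows were free of peaks. Windows under a lipid-overload peak are shown because they place the few peaks of these genes that reach an annotated start. Each runs 5′ to 3′ on the strand of its gene, with capitals for the bases inside the lipid-overload peak. The RANBP2 window is chr2:108719232-108719531 (+ strand), that of CCDC138, a gene inside the RANBP2 interval, chr2:108786521-108786820 (+ strand), that of SEPTIN10, also inside the RANBP2 interval, chr2:109613917-109614216 (- strand), and that of CUX1 chr7:101817376-101817675 (+ strand).
RANBP2: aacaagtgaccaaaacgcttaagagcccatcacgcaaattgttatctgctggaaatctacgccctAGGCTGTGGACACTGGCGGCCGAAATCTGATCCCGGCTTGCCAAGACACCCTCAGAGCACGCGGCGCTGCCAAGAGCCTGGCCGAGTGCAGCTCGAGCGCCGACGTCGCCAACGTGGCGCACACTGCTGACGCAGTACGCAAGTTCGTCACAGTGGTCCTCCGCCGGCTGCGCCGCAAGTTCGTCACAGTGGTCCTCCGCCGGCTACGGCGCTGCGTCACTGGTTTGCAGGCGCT
CCDC138: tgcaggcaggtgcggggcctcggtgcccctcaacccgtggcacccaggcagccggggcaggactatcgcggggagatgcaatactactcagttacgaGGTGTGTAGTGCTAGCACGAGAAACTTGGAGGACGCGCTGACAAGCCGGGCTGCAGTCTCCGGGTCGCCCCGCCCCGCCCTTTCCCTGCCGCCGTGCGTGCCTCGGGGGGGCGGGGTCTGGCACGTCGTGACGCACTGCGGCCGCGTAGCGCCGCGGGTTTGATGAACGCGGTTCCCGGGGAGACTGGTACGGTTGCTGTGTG
SEPTIN10: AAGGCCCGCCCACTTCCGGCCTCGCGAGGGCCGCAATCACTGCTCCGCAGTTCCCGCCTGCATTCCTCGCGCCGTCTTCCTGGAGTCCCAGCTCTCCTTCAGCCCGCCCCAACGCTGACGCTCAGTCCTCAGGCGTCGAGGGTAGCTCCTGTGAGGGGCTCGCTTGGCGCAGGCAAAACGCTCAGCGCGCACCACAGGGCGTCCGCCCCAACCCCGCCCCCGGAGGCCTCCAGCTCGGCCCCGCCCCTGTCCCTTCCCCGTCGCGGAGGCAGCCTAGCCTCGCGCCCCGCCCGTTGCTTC
CUX1: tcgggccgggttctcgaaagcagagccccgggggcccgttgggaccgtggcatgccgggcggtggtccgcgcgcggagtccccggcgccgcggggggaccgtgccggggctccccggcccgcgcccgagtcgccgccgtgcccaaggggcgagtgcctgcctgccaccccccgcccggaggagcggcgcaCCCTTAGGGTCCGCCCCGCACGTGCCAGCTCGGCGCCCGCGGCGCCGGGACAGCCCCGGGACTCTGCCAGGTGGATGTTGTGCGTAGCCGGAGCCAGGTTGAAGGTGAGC

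The lipid-overload peak covered 235 of the 300 bases at RANBP2, 203 at CCDC138, all 300 at SEPTIN10 and 110 at CUX1. The same peak also covered the whole window of SOWAHC, which runs the other way from SEPTIN10 and overlaps its window. A mock peak reached the windows of RANBP2, SEPTIN10 and SOWAHC, and none reached those of CCDC138 and CUX1. G+C made up 62.0% of the RANBP2 window, 68.7% of that of CCDC138, 72.0% of that of SEPTIN10 and 78.3% of that of CUX1, and all lay above the median of 58.7% over 35116 RefSeq windows. CpG dinucleotides numbered 31 at RANBP2, 33 at CCDC138, 33 at SEPTIN10 and 42 at CUX1, with a median of 14 over all windows. The letters GGGCGG, the GC box, searched on both strands, occurred 0 times at RANBP2, 3 times at CCDC138, 6 times at SEPTIN10 and 3 times at CUX1, where 1 match lay under the peak. Over all windows, 45.0% hold that motif at least once. CCGGAAG, a core bound by ETS factors, occurred once at SEPTIN10, and 10.3% of all windows hold it, while CCAAT (34.6% of all windows) and TGACGTCA (1.85%) were in none of the 4 windows.

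Together the 5 genes, 3727 kb of DNA, held 129 lipid-overload peaks (108 to 153) and 33 mock peaks (22.7 to 46.3). Of the lipid-overload peaks, 105 (81.4%) overlapped no mock peak, close to the 85.7% of the whole lipid-overload list. Of the mock peaks, 11 (33.3%) overlapped no lipid-overload peak, compared with 54.2% of the whole mock list. Without AHRR the share was 42.3%. Genes chosen for many lipid-overload peaks favour such overlaps, so nothing is read from this share. Lipid-overload peaks in the 5 genes had a median of 8 fragments and a highest of 49, and mock peaks a median of 6 and a highest of 24. Most were narrow, with a median width of 177 bp in lipid overload and 205 bp in mock. With the lipid-overload list shortened to the length of the mock list by rank on −log10 q, the 5 genes held 34 lipid-overload and 33 mock peaks. By gene these were 5 and 7 in PTPRN2, 2 and 6 in DLGAP2, 7 and 7 in RANBP2, 8 and 7 in AHRR and 12 and 6 in CUX1, so PTPRN2 and DLGAP2 then had fewer lipid-overload than mock peaks. The map of peaks along each gene shows that only AHRR and CUX1 carried many peaks of high fragment number. In AHRR these stood on a raised local background, and the median deposited fold was 4.68 in lipid overload. It was 4.94 in PTPRN2, 4.74 in RANBP2, 4.58 in DLGAP2 and 7.02 in CUX1. This fold adds 1 to the fragments and to the background, which lowers it most on a low background. Median backgrounds under the lipid-overload peaks ran from 0.433 fragments in DLGAP2 to 3.15 in AHRR, so the genes are not ranked by the fold.

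**Figure D1:**
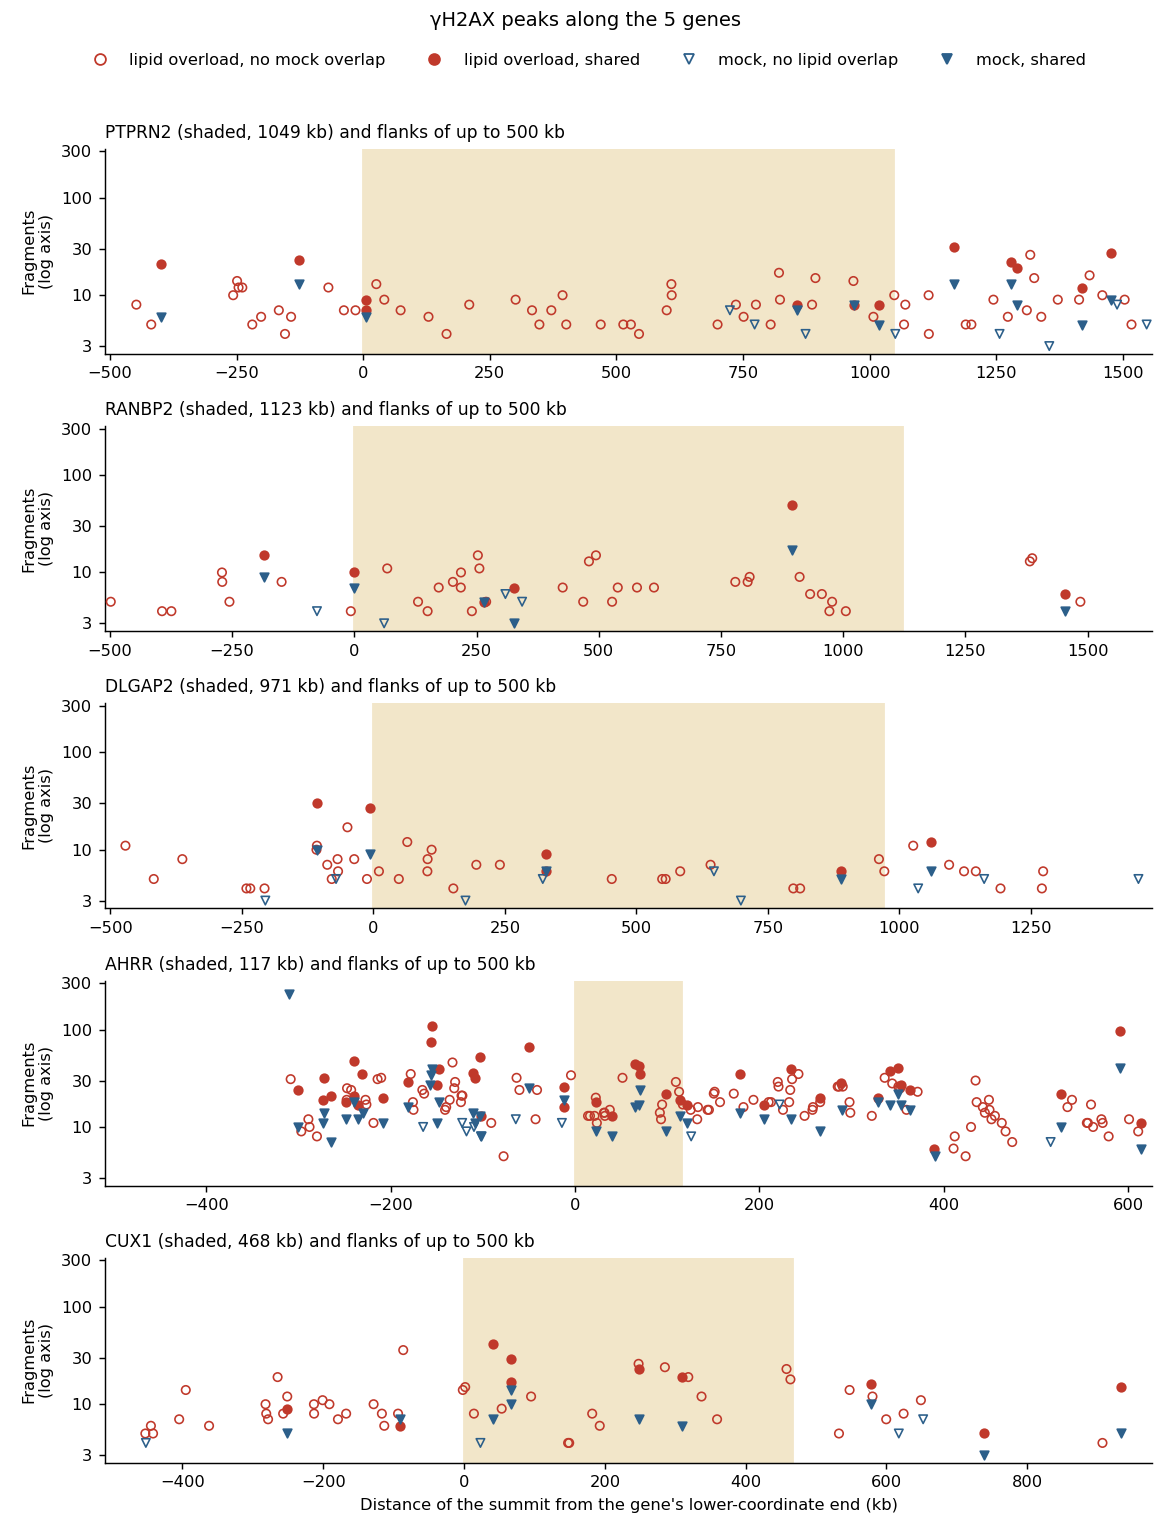
Position of every γH2AX peak summit (kb from the lower-coordinate end of the gene, horizontal axis) against the number of fragments over it (log axis) in each of the 5 genes (shaded) and their flanks, with circles for lipid overload and triangles for mock, filled where the libraries' peaks overlap. Peaks of 10 or more fragments are the rule in AHRR (22 of 22 in lipid overload) and in CUX1 (13 of 20), and the flanks of AHRR are crowded as well (1 flank peak whose fragment number could not be recovered is left out).

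The genes were set against the 500 kb on either side of them. Lipid-overload peaks stood at 34.6 per Mb inside the 5 genes and 51.8 per Mb in their flanks, a ratio of 0.668 (0.536 to 0.829). Mock peaks stood at 8.85 per Mb inside and 16.2 per Mb in the flanks, a ratio of 0.547 (0.353 to 0.832). Without AHRR, whose flanks held 135 of the 250 lipid-overload flank peaks, the ratio was 1.03 (0.785 to 1.35) in lipid overload and 0.929 (0.530 to 1.62) in mock. The whole list has 8.84 lipid-overload peaks per Mb, and a higher density inside the genes was fixed by choosing them for many peaks. The pooled ratio is weighted unevenly, because AHRR gave 117 of the 3727 kb of gene and 822 of the 4822 kb of flank. Gene by gene, the lipid-overload ratio was 2.19 in RANBP2, 1.19 in CUX1, 1.15 in AHRR, 0.834 in PTPRN2 and 0.792 in DLGAP2. All of these intervals but that of RANBP2 take in 1. The lower pooled density is therefore not read as a trait of the genes. Within 1 kb of a coding gene's end lay 4 lipid-overload peaks in the genes (3.10%), 33 of those in the flanks (13.2%) and 31.0% of the whole list, and the share in the genes is set by the same choice.

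**Figure D2:**
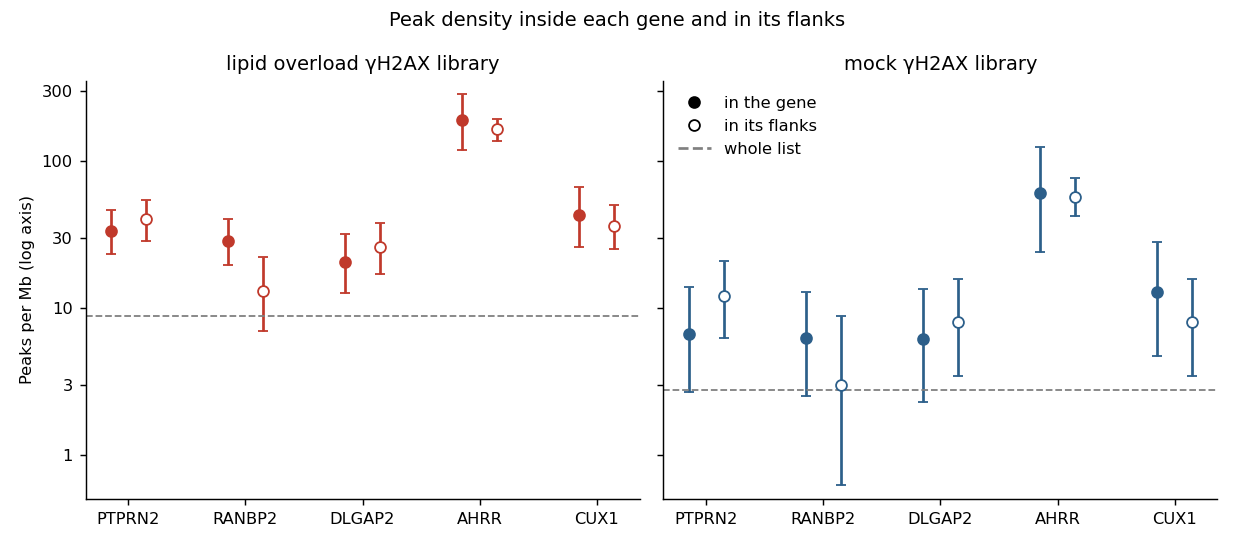
Peaks per Mb (log axis) inside each gene (filled) and in up to 500 kb on either side (open), for the lipid-overload library on the left and the mock library on the right, with 95% Poisson intervals for counting error and the whole-list density dashed. With all listed peaks, RANBP2 has 28.5 per Mb in lipid overload and its flanks 13.0, with intervals that overlap slightly (19.5 to 40.2 and 6.92 to 22.2). With a −log10 q of at least 5 the RANBP2 ratio is 1.25 (0.341 to 4.98). The intervals of gene and flanks overlap widely for the other genes.

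PTPRN2 spans 1049 kb at chr7:157539056-158587823, and its upper end lies 748 kb from the last annotated position of the chromosome. It held 35 lipid-overload peaks (24.4 to 48.7), 30 of them without a mock peak, and 7 mock peaks (2.81 to 14.4), 3 of them without a lipid-overload peak. Peaks were spread along the whole gene: cut into 5 equal lengths, it held 8, 6, 7, 7 and 7 in lipid overload and 1, 0, 0, 2 and 4 in mock. None lay within 1 kb of a gene end in either library. The tallest lipid-overload peaks were low beside those of AHRR and CUX1, with a range of 4 to 17 fragments and a median of 8, and the mock peaks ranged from 4 to 8.

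Nearest the lower end, peaks at 5.98 and 6.35 kb with 9 and 7 fragments in lipid overload overlapped a single mock peak of 6 fragments at 6.14 kb. Lipid-overload peaks without a mock peak followed at 25.8, 41.6, 73.8, 129, 165 and 209 kb, with 13, 9, 7, 6, 4 and 8 fragments. From there to 401 kb they stood at 301, 333, 348, 371, 394 and 401 kb, with 9, 7, 5, 7, 10 and 5 fragments. No mock peak lay in the 718 kb between the first mock peak and the next one, so in that stretch of the gene lipid overload alone listed peaks. The middle of the gene carried the lowest run, at 469, 514, 529 and 545 kb with 5, 5, 5 and 4 fragments, then 7 at 599 kb and a close pair of 13 and 10 at 609 kb. Past a gap without lipid-overload peaks, they stood at 699.8, 736, 751, 776 and 805 kb with 5, 8, 6, 8 and 5 fragments, and mock peaks of 7 and 5 fragments stood at 724 and 773 kb without touching any of them.

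The upper part of PTPRN2 was where mock peaks also gathered. The tallest lipid-overload peak, 17 fragments (9.90 to 27.2) at chr7:158360075-158360323, stood at 821 kb beside one of 9 fragments at 823 kb, and neither had a mock peak. At 856 kb both libraries had a peak, with 8 fragments in lipid overload and 7 in mock. Peaks of 8 and 15 fragments at 886 and 893 kb were without a mock peak, although a mock peak of 4 fragments lay at 874 kb. At 969 kb the libraries shared a peak of 8 fragments each, beside a lipid-overload peak of 14 fragments at 968 kb that did not reach it. The last peaks were one of 6 fragments at 1008 kb in lipid overload alone and a shared one at 1018 kb, with 8 in lipid overload and 5 in mock. All 5 shared lipid-overload peaks of PTPRN2 were below the depth ratio, at 1.00 to 1.60 times the mock fragments, but all 5 intervals took in that ratio.

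PTPRN2 held fewer peaks per Mb than its flanks, by less than the counting error. Lipid-overload peaks stood at 33.4 per Mb in the gene and 40.0 per Mb in the flanks, a ratio of 0.834 (0.515 to 1.35), and mock peaks at 6.67 and 12.0 per Mb, a ratio of 0.556 (0.186 to 1.53). With only peaks of −log10 q of at least 5 the lipid-overload ratio was 0.417 (0.145 to 1.07). The flank below held 16 lipid-overload and 2 mock peaks, and the flank above 24 and 10. Here and for the other flanks, a neighbouring gene is given the peaks inside it or within 1 kb of it, so that 1 peak can count for adjoining genes. Below, DNAJB6, a co-chaperone, had 5 lipid-overload peaks and 1 mock peak, LOC124901803 2 and 0, and the ubiquitin ligase gene UBE3C 1 and 1. Above, DYNC2I1, which encodes a dynein chain of cilia, had 7 lipid-overload and 2 mock peaks, the membrane tether gene ESYT2 5 and 3, and the condensin gene NCAPG2 3 and 1. No other coding gene overlaps PTPRN2, and of 7 noncoding genes inside it only LOC105375615 held a peak, with 7 fragments in lipid overload. The microRNA gene MIR153-2 lay 6.10 kb from the nearest lipid-overload peak and 28.9 kb from the nearest mock peak, and MIR595 lay 13.9 kb and 24.3 kb away.

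DLGAP2 spans 971 kb at chr8:737628-1708476, 738 kb from the start of its chromosome. It held 20 lipid-overload peaks (12.2 to 30.9), 17 of them without a mock peak, and 6 mock peaks (2.20 to 13.1), 4 of them without a lipid-overload peak. These were the lowest peaks of the 5 genes, with 4 to 12 fragments in lipid overload (median 6) and 3 to 6 in mock (median 5). In 5 equal lengths of the gene there were 7, 4, 3, 2 and 4 lipid-overload peaks and 1, 2, 0, 2 and 1 mock peaks, numbers too small to tell the lengths apart.

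The first stretch of DLGAP2 held 9 lipid-overload peaks without a mock peak. They stood at 10.6, 48.4 and 64.5 kb with 6, 5 and 12 fragments, as a close pair of 6 and 8 at 103 kb, and at 111, 152, 196 and 241 kb with 10, 4, 7 and 7. The peak of 12 fragments (6.20 to 21.0), the tallest in the gene, was at chr8:801966-802192. A mock peak of 3 fragments at 175 kb overlapped none of them. At 329 kb, 2 lipid-overload peaks of 6 and 9 fragments overlapped 1 mock peak of 6, and a mock peak of 5 fragments at 322 kb had no counterpart. Beyond it the lipid-overload peaks had 5 fragments each at 453, 549 and 556 kb, 6 at 583 kb, 7 at 641 kb, and 4 each at 798 and 811 kb. Mock peaks of 6 and 3 fragments at 647 and 699 kb fell among these and met none. At 889 kb the libraries shared a peak, with 6 fragments in lipid overload and 5 in mock, and a last lipid-overload peak of 8 fragments stood alone at 961 kb. The longest stretch of DLGAP2 without a lipid-overload peak measured 157 kb, and the longest without a mock peak 319 kb.

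DLGAP2 too held fewer peaks per Mb than its flanks of 500 kb, within the counting error. Lipid-overload peaks stood at 20.6 per Mb in the gene and 26.0 per Mb in the flanks, a ratio of 0.792 (0.419 to 1.48), and mock peaks at 6.18 and 8.00 per Mb, a ratio of 0.773 (0.221 to 2.54). Against flanks of 250 kb the lipid-overload ratio was 0.490 (0.252 to 0.951), an interval wholly below 1, and against flanks of 1 Mb 1.02 (0.559 to 1.82). The comparison therefore depends on the length of the flanks. The lower flank held 17 lipid-overload and 4 mock peaks, of which 11 and 3 lay in or at ERICH1, next to DLGAP2, and 3 and 1 at TDRP. The upper flank held 9 lipid-overload and 4 mock peaks, among them 4 and 1 at the guanine nucleotide exchange factor gene ARHGEF10 and 1 and 1 at CLN8, which encodes an endoplasmic reticulum membrane protein. The tallest lipid-overload peak at ERICH1 had 30 fragments, above any in DLGAP2. Inside DLGAP2 there are 10 noncoding genes and no other coding gene. LOC105379585 held 1 lipid-overload peak of 7 fragments, and a mock peak of 3 fragments lay where LOC105377775 and LOC105379586 overlap.

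RANBP2 differed from the others in what its interval contains. RefSeq gives it 1123 kb at chr2:108719482-109842301, and 18 other genes overlap that stretch, 6 of them coding. The 6 coding genes, CCDC138, EDAR, SH3RF3, SEPTIN10, SOWAHC and RGPD5, cover 726 kb of it, or 64.7%. The interval held 32 lipid-overload peaks (21.9 to 45.2), 28 of them without a mock peak, and 7 mock peaks (2.81 to 14.4), 3 of them without a lipid-overload peak. Of the 32 lipid-overload peaks, 20 (62.5%) had their summit in another coding gene, and 19 of these 20 had no mock peak. Of the 7 mock peaks, 1 had its summit in another coding gene.

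Before the first of the other coding genes, CCDC138, lies a stretch of 67.3 kb. It held 1 lipid-overload peak, of 10 fragments (4.80 to 18.4) at chr2:108719297-108719770 reaching into the RANBP2 window printed above, and it was shared with a mock peak of 7 fragments. A second mock peak in this stretch, of 3 fragments at 61.0 kb, had no lipid-overload counterpart. The stretch therefore held 0 of the 28 peaks found in lipid overload without a mock peak. With the interval ended there, an alternative added after the data had been seen, RANBP2 stood at 0.531 times the lipid-overload density of its flanks (0.0130 to 3.21), and with the whole interval at 2.19 times (1.12 to 4.55). Over the whole interval the ratio was 1.25 (0.341 to 4.98) for a −log10 q of at least 5, 1.53 (0.554 to 4.58) for a fold of at least 5 and 1.56 (0.396 to 7.26) with lists of equal length, and all of these intervals take in a ratio of 1. For mock peaks the ratio over the whole interval was 2.08 (0.474 to 12.5).

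**Figure D3:**
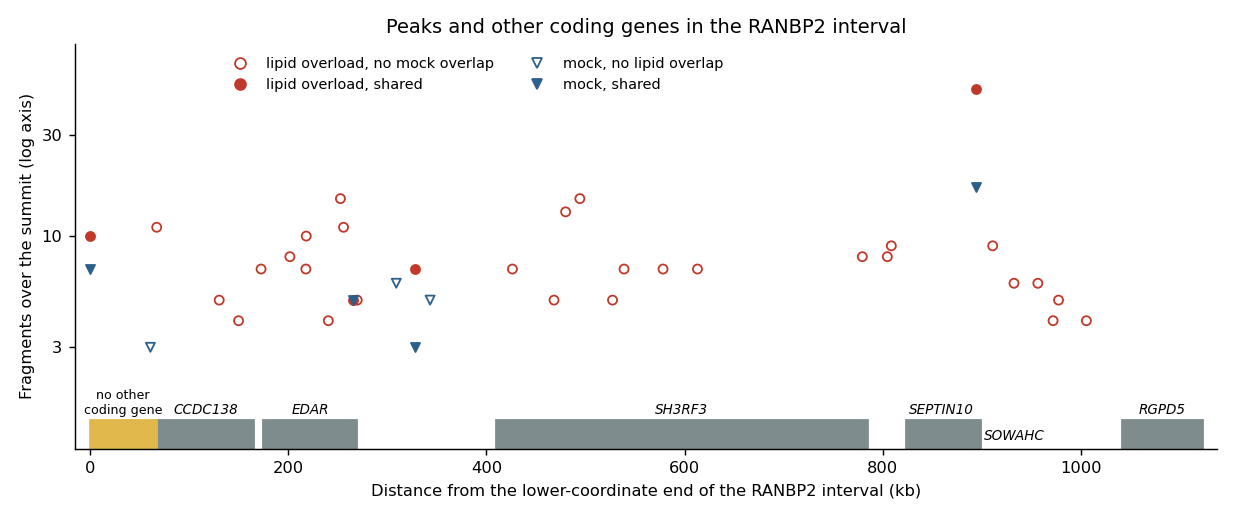
Fragments over each γH2AX peak summit (log axis) along the RANBP2 interval in kb from its lower end, with circles for lipid overload and triangles for mock, filled where they overlap, above the other coding genes drawn as grey bars and the stretch of 67.3 kb without another coding gene in yellow. The yellow stretch holds 1 shared lipid-overload peak, and the tallest peak, with 49 fragments, stands between SEPTIN10 and SOWAHC.

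CCDC138 held 3 lipid-overload peaks and no mock peak. The first, of 11 fragments at 67.3 kb, covered part of the CCDC138 window printed above, and those of 5 and 4 fragments stood at 130.4 and 150.0 kb. A lone lipid-overload peak of 7 fragments at 173 kb lay between CCDC138 and EDAR. EDAR, which encodes the receptor for ectodysplasin, held 8 lipid-overload peaks in 94.8 kb, the densest of the coding genes in the interval at 84.4 per Mb (36.5 to 166). They stood at 202 kb with 8 fragments, as a pair of 7 and 10 at 218 kb, and at 241, 253, 256, 266 and 269.7 kb with 4, 15, 11, 5 and 5. The peak at 266 kb was shared, with 5 fragments in mock too, and the other 7 were without a mock peak. Between EDAR and SH3RF3 the order turned, with 3 mock peaks of 6, 3 and 5 fragments at 309, 328 and 343 kb, and 1 lipid-overload peak, of 7 fragments at 328 kb, that met the mock peak of 3.

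SH3RF3, which encodes a ubiquitin ligase with SH3 domains, held 9 lipid-overload peaks in 375 kb, or 24.0 per Mb (11.0 to 45.5), and no mock peak. They stood at 426, 468, 480.0, 494, 527, 539, 578, 613 and 779 kb with 7, 5, 13, 15, 5, 7, 7, 7 and 8 fragments. The gap of 166 kb before the last of them was the longest in the interval in lipid overload. Peaks of 8 and 9 fragments at 805 and 809 kb lay between SH3RF3 and SEPTIN10 and had no mock peak. The tallest peak of the interval, at chr2:109613854-109614457, lay across the head-to-head starts of SEPTIN10, a cytoskeletal GTPase gene, and SOWAHC, in the SEPTIN10 window printed above. It had 49 fragments in lipid overload (36.3 to 64.8) and 17 in mock (9.90 to 27.2), or 2.88 times the mock number (1.63 to 5.34), which takes in the depth ratio. Its summit fell in the 0.397 kb between both genes, so it counts to neither.

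Beyond SOWAHC, 6 lipid-overload peaks without a mock peak stood at 911, 933, 957, 972, 977 and 1006 kb with 9, 6, 6, 4, 5 and 4 fragments, of which the one at 977 kb lay in the noncoding gene LOC105373545. No peak of either library lay in the part of RGPD5 inside the interval. RGPD5 is one of the RGPD genes, which are partial copies of RANBP2, and how reads from near-identical copies were placed is not given in the sources used here, so the values for RANBP2 and these copies are uncertain. Of 7 RGPD genes, 1 had a lipid-overload peak inside or within 1 kb, RGPD3 with 9 fragments, and 2 had a mock peak, RGPD1 and RGPD3. Among all coding genes the shares were 57.8% in lipid overload and 24.1% in mock. The microRNA genes MIR4265 and MIR4266 in the interval lay 4.13 and 15.6 kb from the nearest lipid-overload peak and 78.6 and 251 kb from the nearest mock peak.

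The flanks of RANBP2 held few peaks, 13 in lipid overload and 3 in mock. RGPD5 runs on into the upper flank, where the first peak of either library stood 1382 kb from the lower end of RANBP2. The density of that flank is therefore uncertain too. Below, the golgin gene GCC2 had 3 lipid-overload peaks and 0 mock peaks, and LIMS1, an adapter of focal adhesions, 2 and 2. Above, MALL had 2 and 0. Of the proteins known to work with RANBP2, 8 genes were looked up, and all 8 had a lipid-overload peak inside or within 1 kb of the gene, while 3 had a mock peak, and among all coding genes 57.8% and 24.1% do. The list is short, and nothing particular to it is read from these counts. The tallest lipid-overload peaks there were of 47 fragments at KPNB1, an import receptor, 29 at the nucleoporin gene NUP214 and 20 at RAN. RANGAP1, which activates the Ran GTPase, had 10 fragments, NUP88 17 and the export receptor gene XPO1 15. The mock peaks were at NUP88, XPO1 and KPNB1.

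AHRR was the shortest of the 5 genes and the most crowded, with 22 lipid-overload peaks (13.8 to 33.3) and 7 mock peaks (2.81 to 14.4) in 117 kb at chr5:321714-438285. At 189 lipid-overload peaks per Mb it ranked first of 3350 coding genes of 100 kb or more, whose median was 4.13 per Mb, and CUX1 ranked 88, PTPRN2 160, RANBP2 242 and DLGAP2 405. That rank rests on the length limit, since the neighbouring PLEKHG4B, 97.8 kb long, held 205 per Mb. All 7 mock peaks were shared, while 15 of the 22 lipid-overload peaks had no mock counterpart. Lipid-overload peaks had 11 to 44 fragments with a median of 16, and mock peaks 8 to 24 with a median of 13. Every peak of the gene also lies in PDCD6-AHRR, a readthrough transcript annotated over the whole of AHRR, and the libraries give no way to assign a peak to one of them.

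No peak of either library stood in the first 14.1 kb of AHRR. The first lipid-overload peaks, at 14.1 and 16.3 kb with 13 fragments each, had no mock peak. A group of 4 followed within 3 kb, at 21.2, 22.6, 23.1 and 23.7 kb with 13, 20, 18 and 11 fragments, of which the peak of 18 overlapped a mock peak of 9 fragments. Next came 14, 14 and 13 fragments at 31.3, 32.1 and 32.4 kb and 15 at 37.7 kb, all without a mock peak, and 13 at 39.7 kb, shared with a mock peak of 8. The tallest lipid-overload peak without a mock peak in any of the 5 genes, 32 fragments (21.9 to 45.2) at chr5:372996-373410, stood at 51.5 kb, with the nearest mock summit 11.7 kb away.

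The middle of AHRR held its tallest peaks, and these were in both libraries. At 65.0 kb there were 44 fragments in lipid overload (32.0 to 59.1) and 16 in mock (9.15 to 26.0), at 69.7 kb 42 and 17, and at 70.5 kb 35 and 24. The lipid-overload to mock ratio was 2.75 (1.52 to 5.22) at 65.0 kb and 2.47 (1.38 to 4.63) at 69.7 kb, and at 70.5 kb it was 1.46 (0.843 to 2.56), below the depth ratio with its whole interval. After 21.5 kb without a peak came 14, 12 and 17 fragments at 92.1, 93.3 and 94.5 kb in lipid overload alone. A shared peak at 99.2 kb had 22 fragments in lipid overload and 9 in mock. Close to the upper end stood lipid-overload peaks of 29 and 23 fragments at 109 and 113 kb without a mock peak, and a shared one at 114 kb with 19 in lipid overload and 13 in mock.

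The neighbourhood of AHRR was crowded too. Lipid-overload peaks stood at 189 per Mb in the gene and 164 per Mb in its flanks, a ratio of 1.15 (0.697 to 1.81), and mock peaks at 60.0 and 57.2 per Mb, a ratio of 1.05 (0.400 to 2.34). The lower flank reaches the chromosome start after 322 kb and held 57 lipid-overload and 29 mock peaks, and the upper flank held 78 and 18. Below, PLEKHG4B, a guanine nucleotide exchange factor gene, had 21 lipid-overload and 9 mock peaks, CCDC127 6 and 6, and SDHA, a subunit of succinate dehydrogenase, 6 and 4. Above, ZDHHC11B had 14 and 1, the centrosome gene CEP72 12 and 4, and TPPP, a tubulin polymerisation factor, 9 and 4. The local background under the AHRR peaks was raised as well, with a median 10.9 times the genome level in lipid overload and 13.2 times in mock, and 13.2 and 13.1 times in its flanks. Over the whole lists the median was 2.57 times in lipid overload and 2.38 times in mock. The part of this background in the number of peaks was not tested.

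The aryl hydrocarbon receptor pathway, in which AHRR acts as a repressor, was looked at by 9 further genes. A lipid-overload peak lay inside or within 1 kb of 5 of them and a mock peak of 3, where 57.8% and 24.1% of all coding genes have one. NQO1, an oxidoreductase gene induced through the receptor, had 41 fragments in lipid overload, ARNT, the partner of the receptor, 31, AHR itself 12 and CYP1A1, its best known target, 6. The mock peaks were at CYP1B1, TIPARP and NQO1. ARNT2 and CYP1A2 had no peak in either library.

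CUX1 spans 468 kb at chr7:101816007-102283958 and held 20 lipid-overload peaks (12.2 to 30.9), 15 of them without a mock peak, and 6 mock peaks (2.20 to 13.1), 5 of which overlapped a lipid-overload peak. Its lipid-overload peaks had 4 to 42 fragments with a median of 16, and its mock peaks 4 to 14 with a median of 7. CUX1 also had the highest median deposited folds of the 5 genes, 7.02 in lipid overload and 5.47 in mock. That fold is taken after adding 1 to the fragments and to the local background, which lowers it most where the background is low. The genes differ in background, so this order is not read as one of enrichment. Per Mb, lipid-overload peaks stood at 42.7 in the gene and 36.0 in the flanks, a ratio of 1.19 (0.651 to 2.11), and mock peaks at 12.8 and 8.00, a ratio of 1.60 (0.458 to 5.27). Both intervals take in 1. Among stronger peaks the lipid-overload ratio was 2.78 (1.13 to 7.08) for a −log10 q of at least 5. It was 2.47 (1.09 to 5.63) for a fold of at least 5, and 3.66 (1.33 to 11.0) with the lipid-overload list shortened to the length of the mock list. CUX1 was chosen for its lipid-overload peaks, and these settings keep overlapping parts of them, so the ratios are a description and support nothing.

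The first lipid-overload peak of CUX1, of 15 fragments (8.40 to 24.7) at 1.64 kb, covered the end of the window printed above and had no mock peak. One of 8 fragments followed at 14.1 kb, and a mock peak of 4 at 23.3 kb had no lipid-overload counterpart. At 41.1 kb, chr7:101856780-101857200, lipid overload had 42 fragments (30.3 to 56.8) and mock 7 (2.81 to 14.4). That is 6.0 times the mock number (2.67 to 15.8), the only one of the 24 shared peaks whose whole interval lay above the depth ratio. The interval of 1 other lay wholly below it, and among 24 intervals a few can miss it by counting error alone. The lower limit of 2.67 is close to the depth ratio of 2.62, whose own error is left out. The same count over the whole list was not made, so nothing is read from this peak. A peak of 9 fragments stood at 53.5 kb in lipid overload alone. At 66.2 kb lipid overload had 17 fragments and mock 10, and at 67.0 kb 29 and 14, in both cases below the depth ratio.

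Further in, lipid-overload peaks without a mock peak were lower for a stretch, with 12 fragments at 95.3 kb, 4 each at 148 and 149 kb, 8 at 182 kb and 6 at 193 kb. At 248 and 249 kb stood taller lipid-overload peaks of 26 and 23 fragments, and the one at 249 kb overlapped a mock peak of 7. A peak of 24 fragments at 285 kb had no mock peak. At 309 kb lipid overload had 19 fragments and mock 6, and at 319 kb lipid overload had 19 and mock none. Peaks of 12 and 7 fragments followed at 337 and 359 kb, and after 98.6 kb without a peak, peaks of 23 and 18 fragments stood at 458 and 464 kb near the upper end, all in lipid overload alone. No summit in CUX1 lay within 1 kb of a gene end, and neither of the noncoding genes inside it, LOC124900244 and LOC124901711, held a peak.

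The lower flank of CUX1 held 26 lipid-overload and 3 mock peaks, 11 and 1 of them in or at the collagen gene COL26A1 and 2 and 0 at MYL10, a myosin light chain gene. The upper flank held 10 and 5, with 2 and 0 at PRKRIP1, 1 and 0 at SPDYE6 and 1 and 1 at the calcium channel gene ORAI2. Flank peaks of CUX1 had a median of 8 fragments in lipid overload and 5 in mock, lower than the 16 and 7 inside the gene. Of the related homeodomain genes, CUX2 had 1 lipid-overload peak of 7 fragments and 1 mock peak, and SATB1 had none in either library. Among relatives of the granule and scaffold proteins, PTPRN had 1 lipid-overload peak of 7 fragments and no mock peak. All 4 other DLGAP genes had a lipid-overload peak inside or within 1 kb and 2 had a mock peak. Among all coding genes 57.8% and 24.1% have at least 1, and nothing particular to so short a list is read from this. Together the 4 DLGAP genes had 16 lipid-overload and 4 mock peaks, and DLGAP1 alone is 959 kb long. Of the 16, DLGAP1 held 7, the tallest with 39 fragments, DLGAP4 6, the tallest with 26, DLGAP3 2 and DLGAP5 1.

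The 24 shared lipid-overload peaks allow a comparison of height with the mock peaks they overlap. Those were 22 mock peaks, since a mock peak in PTPRN2 and another in DLGAP2 were each used more than once. The summits of a pair lay up to 0.388 kb apart. The 24 lipid-overload peaks had 1.0 to 6.0 times the fragments of the mock peak they overlap, with a median of 1.61. Of these ratios, 19 were below the depth ratio of 2.62 and 5 above it. The whole list held 3937 such pairs, with a median of 2.22, and 36.3% of them were above the depth ratio. By gene, the median ratio was 3.17 in CUX1, 2.00 in AHRR, 1.88 in RANBP2, 1.2 in DLGAP2 and 1.17 in PTPRN2. Intervals were wide, and for 22 of the 24 pairs they took in the depth ratio, so taken singly those pairs could not be told from it. The pairs as a set were not tested against it. Pairs exist only where the mock library listed a peak, which favours sites that stood high in mock, so nothing is read from the low median.

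**Figure D4:**
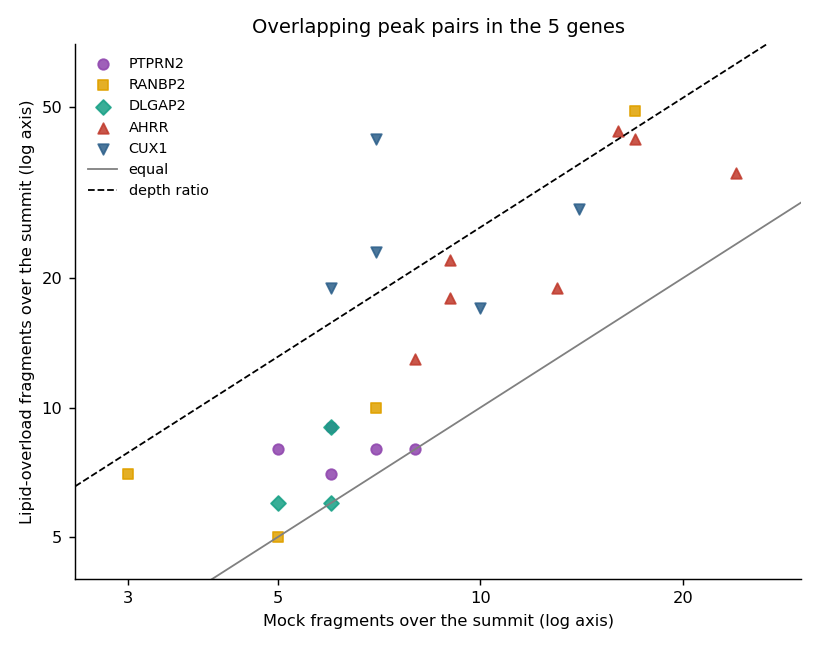
Fragments over the summit in lipid overload (vertical, log axis) against mock (horizontal, log axis) for the 24 overlapping peak pairs of the 5 genes, with a solid line for equal numbers and a dashed line for the depth ratio of 2.62. The CUX1 peak with 42 fragments in lipid overload and 7 in mock stands farthest above the dashed line, and 19 of the pairs lie below it (pairs with equal values coincide).

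For the 105 lipid-overload peaks without a mock peak, the height that the mock library could have shown was set out by dividing their fragments by the depth ratio. They had 4 to 32 fragments with a median of 8. Divided by the depth ratio, 50 of the 105 fell under 3 fragments, the lowest mock peak listed, and 85 under 5, the median mock peak. The 20 peaks at or above the mock median were 9 in AHRR, 6 in CUX1, 3 in PTPRN2, 2 in RANBP2 and 0 in DLGAP2. In DLGAP2, 13 of 17 such peaks fell under the lowest mock peak, in RANBP2 17 of 28, in PTPRN2 16 of 30, in CUX1 4 of 15 and in AHRR 0 of 15. These limits are those of the whole mock list. Within AHRR, on its raised local background, mock peaks started at 8 fragments with a median of 13. The tallest AHRR peak without a mock peak came to 12.2 at mock depth. The 0 of 15 therefore does not show that the mock library could have listed these peaks. A mock summit lay within 1 kb of 5 of the 105. The mock library listed no overlapping peak at the 105 sites, and for most of them its depth does not show whether signal was absent.

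**Figure D5:**
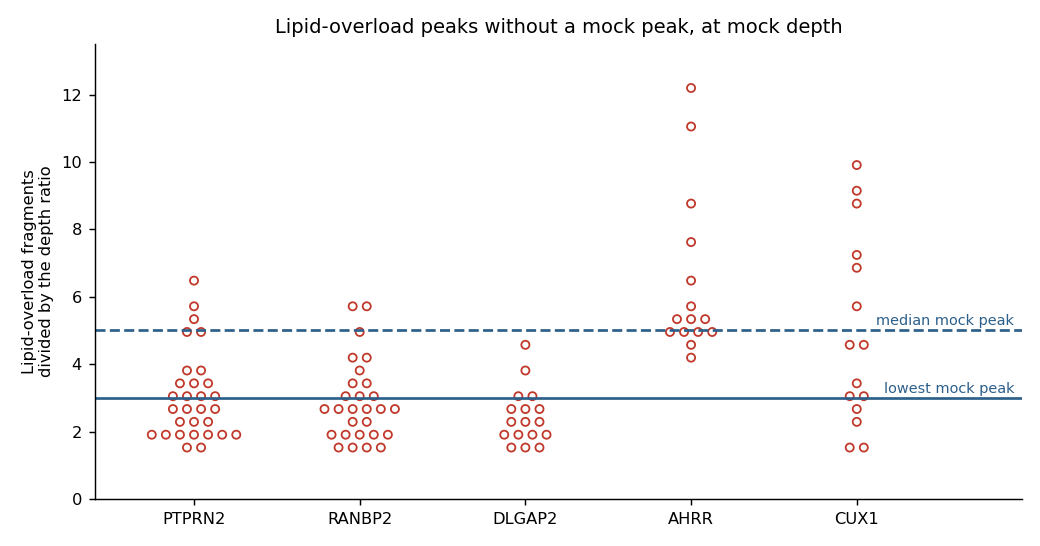
Fragments of each of the 105 lipid-overload peaks without a mock peak, divided by the depth ratio (vertical axis), by gene (horizontal axis, points spread sideways to be seen), with lines at 3 fragments, the lowest mock peak, and 5, the median mock peak. Points above the dashed line number 9 in AHRR, 6 in CUX1, 3 in PTPRN2, 2 in RANBP2 and 0 in DLGAP2. Both lines are those of the whole mock list, and within AHRR the lowest mock peak had 8 fragments.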

How the data were processed

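γH2AX CUT&Tag was run on HepG2 cells in 4 samples, 1 per group, and groups were taken from the treatment labels and sample titles. The submitters' processing notes name build hg38 and the tools BWA, FastQC, deepTools and MACS2 2.1.2. The sources used here do not give their settings or whether IgG was the control for MACS2. The authors called peaks per sample. The lists carry no header and were read as MACS2 narrowPeak: the deposited score, the deposited fold (a linear ratio) at the summit, the deposited −log10 p and −log10 q, and the summit offset. These values are the authors' own and were used only to describe peaks, to filter them within a list and to work back to fragment numbers.

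Fold and −log10 p were solved jointly for summit fragments and local background (MACS2 adds 1 to each before taking the fold, and p is a Poisson tail). A whole number fitted 99.989% of the lipid-overload peaks and 100% of the mock peaks within 0.0001 in log10 p. The 3 exceptions lie outside the 5 genes, and 1 of them lies in a flank. The genome backgrounds of 0.289 (lipid overload) and 0.121 (mock) fragments, each over the mean fragment length read from the background steps, 124 and 137 bp, gave the depth ratio of 2.62. The solving step was tested on simulated data. Genes came from the RefSeq table of GRCh38.p14, which holds no strand or exons, so peaks are not placed in exons or introns. Set aside were 718 table genes out of position order by more than 1 Mb.

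Peaks of −log10 q from 1.30 upward were all kept. Flanks of 500 kb stop at the chromosome start. Poisson intervals and binomial intervals for ratios are exact, at 95%. No test was run, since each group has 1 sample. The genes named are the 5 members, every gene that overlaps them or holds one of their peaks, up to 3 coding genes per flank with most lipid-overload peaks (those without any are not named), genes next in rank and the listed relatives and partners, where CASP and NUP358 proved to be older names of CUX1 and RANBP2. Some flank genes and list members are counted but not reported here by name. Members and lists were chosen with earlier results of these data known. Alternatives were stricter peaks, lists of equal length, merged peaks, other overlaps, other flanks, each gene left out and, added after the data had been seen, a shorter RANBP2 interval. Python 3.11.15, numpy 2.4.6, pandas 2.3.3 and scipy 1.17.1 were used.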

Additional observations from a re-analysis of the deposited data

How the results depend on the processing

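The number of lipid-overload peaks in the 5 genes was 129, and it was 41 for a −log10 q of at least 5, 60 for a fold of at least 5 and 34 with lists of equal length. The number of mock peaks was 33, and it was 5 for a −log10 q of at least 5 and 14 for a fold of at least 5. These settings leave fewer peaks by construction. The pooled density in the genes over that in their flanks was 0.668 in lipid overload. It was 0.510 for a −log10 q of at least 5, 0.534 with flanks of 250 kb and 1.03 without AHRR. The lower pooled density thus rested on including AHRR and its crowded flanks. Of 28 values under alternatives for these 3 results, 20 stayed close, 7 moved and 1 reversed. Of 125 for single genes, 92 stayed close, 32 moved and 1 reversed: RANBP2 stood at 0.531 times its flanks when its interval was ended before CCDC138, an alternative chosen after seeing the data. Other causes of these shifts were not tested. Peaks of 3 to 5 fragments lie at the limit of both libraries, so their presence in only one of them says little. No paired analysis was possible because each group holds 1 sample and the labels give no replicate numbers.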
